A study of Mus musculus with 1536 samples.

Results

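Matrix proteases and their inhibitors were examined in lymphatic endothelial cells (LECs) of the adult mouse nasopharyngeal mucosa. The genes are *Adamts1*, *Adamts4*, *Adamts5*, *Adamts9*, *Mmp2*, *Mmp14*, *Timp1*, *Timp2* and *Timp3*, chosen by symbol, and all 9 were found among the 23168 genes of the expression matrix. They were described over all adult cells, and in the 26.8% of cells with an *Igfbp5* level above 2 against the rest. *Igfbp5* encodes a secreted protein that binds insulin-like growth factors.

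The mice were C57BL/6 of both sexes, aged 10–12 weeks, and the labels name no treatment and no allele other than the strain. Nasopharyngeal mucosa of 30 mice was pooled and digested with enzymes at 37 °C for 30 min, and CD31+ PDPN+ cells were sorted into plates for Smart-seq3, in which reads cover the transcript along its length. Neither the mouse nor the plate of a cell can be read from the labels, so all cells form 1 sample. No test was therefore made, the SD describes these cells only, and the exact 95% binomial intervals given in brackets after shares hold counting error alone.

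The extracellular matrix is cut by secreted and membrane-bound metalloproteases that hold a zinc ion in the active site. The ADAMTS enzymes described here cut large proteoglycans such as versican and aggrecan, whereas the matrix metalloproteinases MMP2 and MMP14 act on collagens and other matrix proteins, and MMP14 at the cell surface activates pro-MMP2 in a complex with TIMP2. The tissue inhibitors TIMP1, TIMP2 and TIMP3 block matrix metalloproteinases, although TIMP1 acts only weakly on those bound to the membrane. TIMP3 stays bound to the matrix and also inhibits ADAMTS4 and ADAMTS5. In lymphatic vessels, MMP14 is known to cleave the hyaluronan receptor LYVE1 from the cell surface.

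Cells held 7433 to 3524358 reads (median 350746) and 2001 to 7236 genes (median 4186.5). The LEC genes *Prox1*, *Flt4* and *Pdpn* were found in 97.7%, 99.8% and 95.2% of cells. At least 2 of 5 fibroblast markers were found in 10 cells, at least 2 of 5 mural markers in 2 cells and at least 2 of 5 immune markers in 3 cells, with *Ptprc* in 0 cells (a limit of 0.356% of cells with a read by a floor of 3 counts, and 0.437% by the exact interval). At least 2 of 5 blood endothelial markers were found in 78.7% of cells, where *Emcn* and *Plvap*, which LECs can also express, led. In the text below, the level of a gene in a cell is the natural log of 1 plus its reads per 10000, and found means at least 1 read.

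The genes lie at separate loci with 1 exception. *Adamts1* (GRCm38 chr16:85793827-85803113, minus strand) and *Adamts5* (chr16:85856173-85901828, minus strand) are neighbours, with 53059 bases between them. *Adamts4* is at chr1:171250421-171260637 (plus), *Adamts9* at chr6:92772699-92943492 (minus), *Mmp2* at chr8:92827291-92853420 (plus) and *Mmp14* at chr14:54431612-54445364 (plus). *Timp1* is at chrX:20870166-20874735 (plus), *Timp2* at chr11:118301069-118355740 (minus) and *Timp3* at chr10:86300372-86349506 (plus). *Timp1* lies within *Syn1* and *Timp3* within *Syn3*, both on the other strand, and exons of *Timp3*, *Adamts4* and *Adamts9* overlap exons of a gene on the other strand. Whether counting used strand is not given in the sources used here, so reads of such overlapping exons cannot be assigned with certainty.

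The 120 bases before the RefSeq start site are shown for 3 of the members with a promoter entry: *Adamts1*, the only one past the fold between the *Igfbp5* groups, and *Adamts9* and *Mmp14*, which differed in opposite directions with *Lyve1*. RefSeq promoter windows of 300 bases (GRCm38.p6) matched 6 of the 9 members; *Adamts4*, *Adamts5* and *Mmp2* had no entry. Capitals mark the GC box (GGGCGG or CCGCCC) and the TATA box (TATAAA or TTTATA), searched on both strands. *Adamts1* is from chr16:85803114-85803233 (minus), *Adamts9* from chr6:92943535-92943654 (minus) and *Mmp14* from chr14:54431478-54431597 (plus).
Adamts1: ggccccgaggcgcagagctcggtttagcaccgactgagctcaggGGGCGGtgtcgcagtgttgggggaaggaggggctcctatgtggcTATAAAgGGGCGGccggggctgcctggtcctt
Adamts9: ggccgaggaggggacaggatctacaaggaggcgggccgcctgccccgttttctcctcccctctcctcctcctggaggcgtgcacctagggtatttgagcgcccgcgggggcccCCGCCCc
Mmp14: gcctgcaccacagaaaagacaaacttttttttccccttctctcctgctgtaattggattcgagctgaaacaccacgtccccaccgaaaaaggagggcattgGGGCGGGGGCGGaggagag

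The *Adamts1* stretch holds a TATA box followed by a GC box, and no TATA box was matched in the windows of the other 5 members. A TATA box of these letters was in 13.6% and a GC box in 35.7% of all 32851 promoter windows of the same length. All 6 matched members held at least 1 GC box, 3 of them in the *Adamts1* window. The AP-1 letters TGAGTCA or TGACTCA, present in 5.20% of all windows, were matched in none of the 6. These matches describe letters in a window and say nothing of the factors.

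The inhibitors *Timp3* and *Timp2* and the protease *Adamts1* had by far the highest levels of the 9 genes. *Timp3* was found in 99.4% of cells (95% interval 98.6–99.8%), with a level of 2.12 ± 0.674 (SD over all cells; lowest 0, median 2.21, highest 4.03). *Timp2* was found in 98.5% (97.4–99.2%), with a level of 1.75 ± 0.717 (lowest 0, median 1.82, highest 3.72). Both inhibitors were thus spread over nearly all cells, and the 42 cells with the most reads per 10000 held 14.95% of the summed level of *Timp3* and 15.3% of that of *Timp2*.

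*Adamts1* was found in 77.6% of cells (74.6–80.3%), with a level of 1.11 ± 1.28 (lowest 0, median 0.447, highest 4.65). Its mean of 6.89 reads per 10000 lay between those of *Timp2* (6.21) and *Timp3* (9.18), but it was unevenly shared: 41.4% of cells had a level above 1, and the 42 highest cells held 38.8% of the summed level. The SD exceeded the mean, unlike for *Timp2* and *Timp3*.

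**Figure D1:**
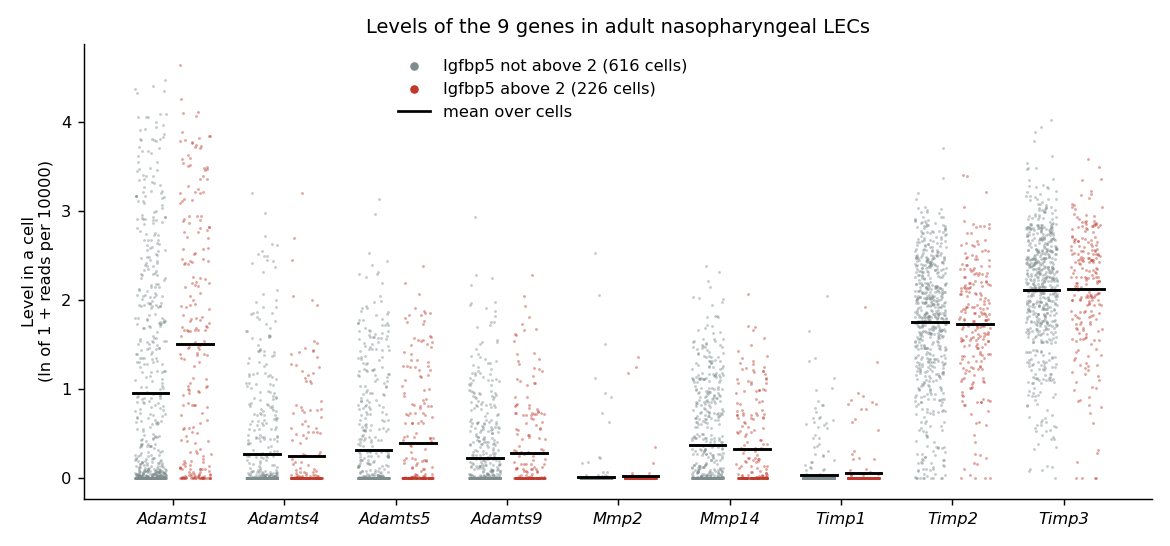
The level of each of the 9 genes (natural log of 1 plus reads per 10000, vertical axis) in each adult cell, with cells with *Igfbp5* not above 2 in grey, cells with *Igfbp5* above 2 in red, and the mean over cells as a black bar. *Timp2* and *Timp3* form a cloud well above 0 in both groups, the mean of *Adamts1* is 0.958 in grey and 1.51 in red, and most cells are at 0 for *Mmp2* and *Timp1*.

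The other ADAMTS genes were found in fewer cells. *Adamts5*, which encodes an aggrecanase, was found in 42.8% of cells (39.4–46.2%) at a level of 0.338 ± 0.590 with a highest value of 3.14. *Adamts9*, whose protein cuts versican, was found in 42.04% (38.7–45.5%) at 0.244 ± 0.453 with a highest value of 2.94. *Adamts4*, also an aggrecanase gene, was found in 35.5% (32.3–38.8%) at 0.264 ± 0.563 with a highest value of 3.21, and 42 cells held 61.4% of its summed level. For each of these 3 genes the median cell was at 0, and levels above 1 were seen in 15.3%, 8.31% and 10.9% of cells.

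Of the metalloproteinases, *Mmp14* was found in 52.1% of cells (48.7–55.6%) at a level of 0.359 ± 0.518, near 0 in the median cell and at most 2.39. *Mmp2*, the gelatinase that MMP14 activates, was found in 28 cells, or 3.33% (2.22–4.77%), and was above 1 in 7 of them. *Timp1*, an inhibitor that acts weakly on membrane-bound MMPs, was found in 75 cells, or 8.91% (7.07–11.04%), and was above 1 in 8 of them. For comparison, the 5 fibroblast markers were found in 0.475% (*Pdgfra* and *Lum*) to 12.4% (*Dcn*) of the cells and the 5 immune markers in 0% (*Ptprc* and *Cd3e*) to 7.96% (*Lyz2*). The share of *Timp1* was above those of all 10 but *Dcn*, and the share of *Mmp2* above those of all but *Dcn* and *Lyz2*. In the 10 cells with at least 2 fibroblast markers, *Mmp2* was found in 1 cell and *Timp1* in 3. The part of stray reads in these low shares was not tested.

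Shares depend on depth. When each cell was thinned to 20000 reads, which left out 51 shallower cells, *Timp3* was found in 98.7% and *Timp2* in 94.8% of the remaining cells. *Adamts1* was then found in 55.5%, *Mmp14* in 35.5%, *Adamts5* in 27.2%, *Adamts9* in 25.3% and *Adamts4* in 21.9%. *Timp1* was found in 5.31% and *Mmp2* in 1.39%. The order of the genes by share was the same at both depths.

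Per length of exons, *Timp2* was highest with 1.59 ± 1.23 reads per 10000 per kb (mean ± SD over cells), followed by *Adamts1* with 1.30 ± 2.56 and *Timp3* with 1.13 ± 0.798. These means were above those of 98.2%, 97.8% and 97.5% of 20985 genes found in the cells. *Adamts4* (0.144), *Mmp14* (0.116), *Timp1* (0.089), *Adamts5* (0.073), *Adamts9* (0.032) and *Mmp2* (0.014) followed. Of the neighbours in this order, *Timp3* and *Adamts4* were the only pair whose means differed by more than the SD over cells of either gene.

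A cell held reads of 5 of the 9 members in the median, with a range of 1 to 8. None of the cells held all 9. Of the 4 ADAMTS genes, 10.1% of cells held none, 23.9% held 1, 33.4% held 2, 23.4% held 3 and 9.26% held all 4. *Mmp2*, *Mmp14* and *Timp2*, whose proteins form the activation complex, were found together in 17 cells (2.02%, 1.18–3.21%). All 28 cells with *Mmp2* also held *Timp2* and *Timp3*, and 17 of them held *Mmp14*. The inhibitors were also found in 98.4% and 99.4% of the cells without *Mmp2*.

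Levels of the members went together only weakly over cells. Pearson's r over the 36 pairs ranged from −0.14 (*Adamts9* and *Timp3*) to 0.20 (*Adamts1* and *Adamts9*), with 0.17 for *Adamts1* and *Adamts4*, 0.11 for *Mmp14* and *Timp2*, and −0.14 for *Adamts1* and *Timp2*. The cells share the pool of mice and the sort, differ in depth, and are no independent samples, so these values are descriptions.

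The next comparison was between cells with *Igfbp5* above 2 and the rest. *Adamts1* was higher in cells with much *Igfbp5* than in the rest, and the other 8 members had ratios within 1.5-fold. The rest was not uniform in *Adamts1*, as described below for cells divided by *Stab2*. A gene was counted as past the fold when the ratio of mean reads per 10000, with 0.1 added to both means, was at least 1.5 or at most its inverse (0.58 on the log2 scale), among 9655 genes found in at least 10% of all cells. *Mmp2* and *Timp1* did not reach this share, which left 7 members. Of these, 1 was past the fold higher, against 2.43% of all such genes, and 0 were past it lower, against 3.50%. The median log2 ratio was 0.01 over the 7 members and −0.03 over all genes.

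In the cells with *Igfbp5* above 2, the level of *Adamts1* was 1.51 ± 1.33 (SD over cells; lowest 0, median 1.40, highest 4.65). In the rest it was 0.958 ± 1.23 (SD over cells; lowest 0, median 0.196, highest 4.47). The groups overlapped over nearly the whole range, with more cells near 0 in the rest. The means were 9.78 and 5.82 reads per 10000, a 1.67-fold ratio (log2 0.74). *Adamts1* was found in 88.5% (83.6–92.3%) against 73.5% (69.9–76.98%) of cells, and after thinning in 71.9% (65.3–77.9%) against 49.6% (45.4–53.7%). Median depth was similar, at 344338 and 362251 reads. The ratio stayed above 0 on the log2 scale in all 14 alternatives. It was under the fold with the dividing *Igfbp5* level at 3 (0.57) and in cells with *Lyve1* above 1 (0.30). The same held in cells above the median of a score of immediate early and stress genes (0.57).

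**Figure D2:**
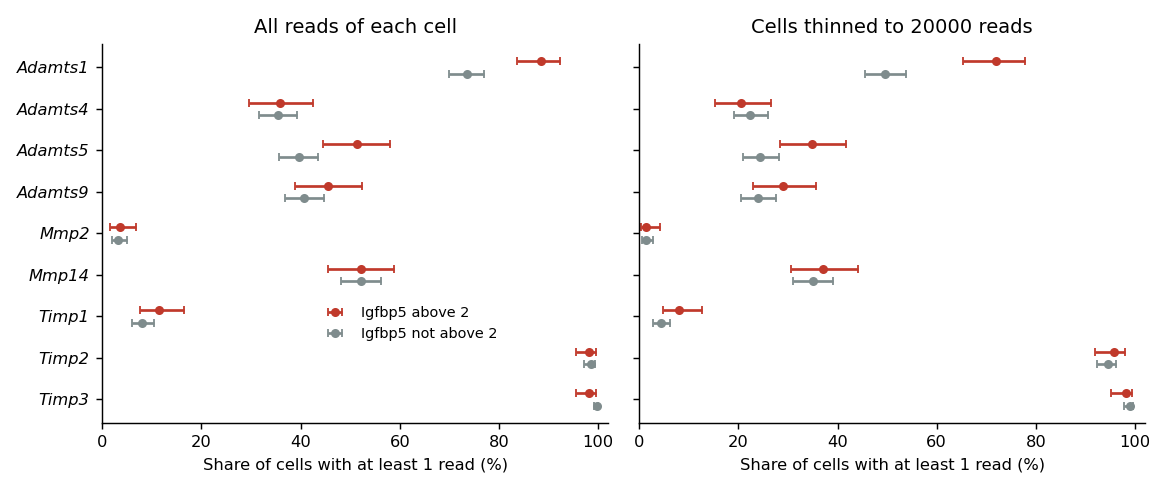
Share of cells in percent (horizontal axis) with at least 1 read of each gene in cells with *Igfbp5* above 2 (red) and not above 2 (grey), with all reads (left) and after thinning to 20000 reads (right). Points are shares and bars are exact 95% binomial intervals, which hold counting error alone. *Adamts1* is at 88.5% (red) and 73.5% (grey) on the left, and at 71.9% and 49.6% on the right.

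*Adamts5* was found in 51.3% (44.6–58.01%) of cells with *Igfbp5* above 2 and in 39.6% (35.7–43.6%) of the rest, and after thinning in 34.8% (28.3–41.6%) and 24.4% (20.998–28.1%). Its mean reads per 10000 were 0.873 and 0.762, a log2 ratio of 0.17. More cells thus held the gene, with a mean that differed little. *Adamts9* had means of 0.562 and 0.449 (log2 ratio 0.27), and *Adamts4* of 0.622 and 0.720 (−0.18).

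The inhibitors *Timp2* and *Timp3* were nearly level between the groups. *Timp3* was at 2.13 ± 0.683 in cells with *Igfbp5* above 2 and 2.12 ± 0.671 in the rest (log2 ratio 0.01), and *Timp2* at 1.73 ± 0.676 and 1.75 ± 0.733 (−0.08). Over the 14 alternatives the log2 ratio of *Timp3* ranged from −0.23 to 0.07 and that of *Timp2* from −0.14 to 0.08. *Mmp14* was at 0.329 ± 0.471 and 0.370 ± 0.534 (−0.27). *Mmp2* was found in 8 and 20 cells, or 3.54% (1.54–6.86%) and 3.25% (1.99–4.97%), and *Timp1* in 26 and 49, or 11.5% (7.65–16.4%) and 7.95% (5.94–10.4%). *Timp1* had means of 0.105 and 0.070 reads per 10000 (0.27, and 0.52 after thinning), and was found after thinning in 8.10% (4.79–12.6%) against 4.30% (2.80–6.29%) of cells.

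The mean natural log of *Adamts1* was higher in each successive range of *Igfbp5*, but its mean reads per 10000 were not. In cells with *Igfbp5* at 0 the mean level of *Adamts1* was 0.83, in cells above 0 and up to 1 it was 0.91, and in cells above 1 and up to 2 it was 1.38. It was 1.40 in cells above 2 and up to 3, and 1.59 in cells above 3. The mean reads per 10000 in the same ranges were 4.11, 5.58, 10.2, 10.1 and 9.55. Median depth ran from 126748 reads in cells with *Igfbp5* at 0 to 520719 in those above 0 and up to 1, and its part was not tested. On both scales the largest step was at an *Igfbp5* level of about 1, below the value that divided the groups, and the SD within each range (1.10 to 1.38) was larger than the whole span. *Adamts5* also had its highest mean, 0.515, in the range from 1 to 2. *Adamts9* was found in 31.4% (22.5–41.3%) of cells in the range from 2 to 3 and in 57.3% (48.1–66.1%) of those above 3, so the cells with *Igfbp5* above 2 were not uniform in this gene. The *Igfbp5* level just above 2 was 2.003 and the level just below was 1.9996, and 44 cells lay between 1.8 and 2.2.

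**Figure D3:**
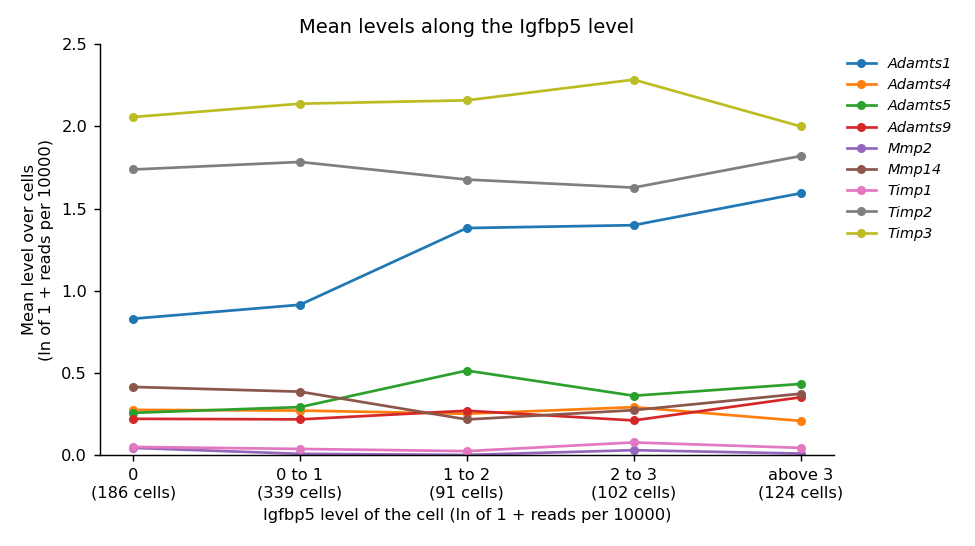
Mean level over cells of each gene (natural log of 1 plus reads per 10000, vertical axis) in 5 ranges of the *Igfbp5* level (horizontal axis, cell numbers in brackets). The mean of *Adamts1* is 0.83 at the left and 1.59 at the right, and *Timp2* and *Timp3* stay between 1.63 and 2.28.

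More members were past the fold in other divisions of the same cells. Cells were also divided by *Lyve1*, which encodes the hyaluronan receptor and marks capillary LECs more than collecting ones. The comparison of ratios by *Lyve1*, *Stab2* and the immediate early score was chosen after values of these groups had been seen. Of the cells with *Igfbp5* above 2, 37.6% had *Lyve1* above 1, against 52.3% of the rest, so both divisions are related.

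In the cells with *Lyve1* above 1 against the others, *Mmp14* and *Timp2* were higher, and *Adamts9* and *Adamts1* lower. *Mmp14* had means of 0.886 and 0.512 reads per 10000 (log2 ratio 0.69) and was found, after thinning, in 42.9% (37.9–48.1%) against 28.8% (24.5–33.5%) of cells. *Timp2* was at a level of 1.96 ± 0.670 against 1.55 ± 0.702, with means of 7.66 and 4.85 (0.65). Both genes of the MMP2 activation complex other than *Mmp2* itself thus had higher means in the cells with more *Lyve1*.

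*Adamts9* was found in 28.7% (24.4–33.4%) of cells with *Lyve1* above 1 and in 54.5% (49.7–59.2%) of the others, and after thinning in 14.9% (11.5–18.9%) and 34.6% (30.05–39.4%). Its means were 0.273 and 0.673 reads per 10000, a log2 ratio of −1.05. *Adamts1* had means of 4.91 and 8.74 (−0.82). Of the 7 members, 2 were past the fold higher and 2 lower, against 2.30% and 2.10% of all genes in these directions. Median depth was 297641 and 376870 reads, and its part in the ratios was not tested.

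*Stab2*, which encodes another hyaluronan receptor, marks the capillary LECs that express *Ptx3*. In the 24.3% of cells with *Stab2* above 1.5 against the others, *Mmp14* had means of 1.10 and 0.561 reads per 10000 (log2 ratio 0.86), and *Adamts4* of 0.986 and 0.599 (0.63). *Adamts1* had means of 3.54 and 7.96 (−1.15), and *Adamts5* of 0.434 and 0.907 (−0.92). After thinning, *Adamts5* was found in 14.1% (9.48–19.8%) against 31.4% (27.7–35.3%) of cells. Among all genes 5.67% were past the fold higher and 4.54% lower, and here 2 of the 7 members were past it in each direction. *Adamts9* was within the fold (0.24), unlike in the division by *Lyve1*. Of the cells with *Igfbp5* above 2, 5 had *Stab2* above 1.5, so *Stab2* and *Igfbp5* marked nearly separate cells.

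Smaller sets of cells were described by values alone. In 97 cells with *Fndc1* above 1.5, a marker of *Ptx3*-negative capillary LECs, *Timp2* was at 2.07 ± 0.647 and *Adamts9* at 0.125 ± 0.343, the latter found in 23.7% of cells. In 77 cells with the valve marker *Cldn11* above 1.5, *Adamts9* was at 0.438 ± 0.535 and found in 54.5% (42.8–65.9%), and *Adamts4* at 0.131 ± 0.348. The share with *Adamts9* was like that of all cells with *Lyve1* not above 1 (54.5%, 49.7–59.2%). Of the cells with *Igfbp5* above 2, 43 were among the former and 25 among the latter.

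Immediate early genes are induced by enzymatic dissociation as well as by signalling in the tissue. A score, called the immediate early score here, was the mean level of 16 immediate early and stress genes. Among them are *Fos*, *Jun*, *Egr1* and *Atf3*, and cells were divided into quartiles by the score. A quartile of a score is a range and not a type of cell. In the highest quartile against the lowest, *Adamts1* had means of 12.4 and 1.46 reads per 10000, an 8.01-fold ratio (log2 3.001), and *Adamts4* of 0.791 and 0.168, a 3.32-fold ratio (1.73). After thinning, *Adamts1* was found in 67.8% (60.9–74.1%) against 31.5% (25.1–38.4%) of cells and *Adamts4* in 29.3% (23.1–36.01%) against 8% (4.64–12.7%).

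The 2 ADAMTS genes were thus far higher where this score was high, while *Mmp14* and *Timp2* were lower, with log2 ratios of −0.77 and −0.73. The median over all genes was −0.16 in this comparison, relative to which *Mmp14* was at −0.62 and *Timp2* at −0.57, the latter within the fold. Of the 7 members, 2 were past the fold higher and 2 lower, against 6.36% and 11.2% of all genes. *Adamts5*, *Adamts9* and *Timp3* were within the fold, at −0.04, 0.35 and 0.19. Median depth was 499027 reads in the highest quartile and 290876 in the lowest, and its part was not tested.

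**Figure D4:**
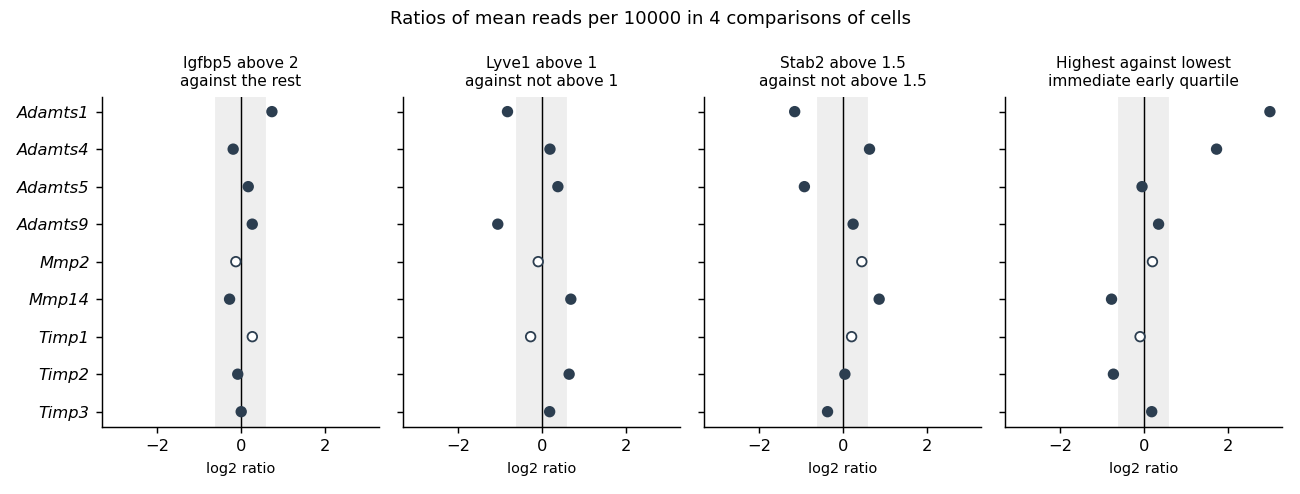
Log2 ratio of mean reads per 10000 (0.1 added to both means, horizontal axis) of each gene in 4 comparisons of cells. Grey marks ratios within 1.5-fold, and open circles are *Mmp2* and *Timp1*, found in under 10% of cells; *Adamts1* is at 0.74, −0.82, −1.15 and 3.001 from left to right, and *Timp3* is within the fold in all 4.

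The score itself was nearly equal between the *Igfbp5* groups, with a median of 1.86 in cells with *Igfbp5* above 2 and 1.802 in the rest. The mean level of *Adamts1* was higher in cells with *Igfbp5* above 2 in each quartile of the score. From the lowest to the highest quartile, it was 0.86 against 0.28, 1.19 against 0.85, 1.79 against 1.26 and 2.07 against 1.49. The log2 ratio of mean reads per 10000 was 2.47 in the lowest quartile, where the group with *Igfbp5* above 2 had 48 cells, and 0.53, 0.45 and 0.64 in the others. This division by quartile was also chosen after values had been seen.

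The genes whose levels were most like those of each member, by Pearson's r over all cells among 6780 genes found in at least 20% of cells, differed between the members. For *Adamts1* they were *Atf3* (0.38), *Sertad1* (0.35) and *Socs3* (0.34), of which *Atf3* and *Socs3* belong to the score. For *Adamts4* they were *Irf1* (0.35), *Trib1* (0.34) and *Sbno2* (0.33). *Timp2* was most like *Flt4* (0.36), the receptor of VEGF-C, followed by *Lyve1* (0.34) and *Reln* (0.34). *Mmp14* was most like *Igfbp4* (0.26), *Aqp1* (0.26) and *Mrc1* (0.25), and *Timp3* like *Fgl2* (0.26), *Enpp3* (0.24) and *Cavin2* (0.24).

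Values were weak for the remaining members. They were 0.23 for *Adamts9* (*Fnip1*, then *Kdm6b* and *Ppp3ca* at 0.21) and 0.18 for *Adamts5* (*Slc30a5*, then *Nudt4* at 0.17). *Mmp2* had 0.17 with *Tuba1c* and 0.16 with *Senp5*. For *Timp1* they were 0.16 (*Med22*) and 0.15 (*Prkar2a* and *Sde2*). Depth and the shared sort enter all of these values.

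Other genes of matrix turnover were counted in the same comparison by *Igfbp5*. Of 88 genes on 7 lists, 79 matched the matrix and 43 were found in at least 10% of cells. Of these 43, 4 were past the fold higher and 7 lower, against 2.43% and 3.50% of all genes, with a median log2 ratio of −0.06. Among 6 other ADAMTS and ADAMTS-like genes, *Adamtsl1* had means of 3.65 and 2.03 reads per 10000 (0.81) and *Adamts15* of 0.130 and 0.482 (−1.34). *Adamts10* was within the fold, as were both other MMP genes that could be compared, *Mmp17* and *Mmp28*.

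Among 6 other inhibitors, *Serpine2*, an inhibitor of serine proteases such as thrombin and urokinase, had means of 6.29 and 3.40 (0.87), *Timp4* of 0.422 and 0.243 (0.60) and *Tfpi2* of 0.236 and 0.425 (−0.64). Among 7 plasminogen and cathepsin genes, *Plat*, the tissue-type activator of plasminogen, had means of 5.11 and 3.08 (0.71), while *Plau*, the urokinase-type activator, had 0.209 and 0.803 (−1.55). The lysosomal protease gene *Ctsd* had 3.56 and 8.84 (−1.29). The 2 activators of plasminogen were thus in opposite directions.

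All 6 ADAM protease genes and all 4 genes of activation and clearance were within the fold. Among 12 substrate genes, 3 were past it lower: *Reln*, with means of 7.19 and 12.5 (−0.79), the basement membrane gene *Nid2*, with 0.746 and 1.26 (−0.68), and *Dcn*, with 0.104 and 0.372 (−1.21). *Dcn* is also a fibroblast marker, and was found in similar shares of both groups, 11.5% and 12.7%. Its log2 ratio was −0.31 with 1 read per 10000 added in place of 0.1, and −0.73 without the 5 highest cells of each group. The summed level of the 5 fibroblast markers reached 4.49 reads per 10000 in cells with *Igfbp5* above 2 and 132.98 in the rest. Without the cells with at least 2 of these markers, 7 of the other matrix genes were again past the fold lower. The part of fibroblast reads in the ratio of *Dcn* itself was not tested. *Vcan*, which encodes versican, was found in 8 cells and *Acan*, which encodes aggrecan, in 3. RNA of both was thus barely detected in these LECs, and protein in the matrix was not measured. With 1 read per 10000 added in place of 0.1, *Adamtsl1*, *Serpine2*, *Ctsd* and *Reln* remained past the fold. Without the 5 highest cells of each group, *Timp4* (0.51) and *Plat* (0.41) were within it.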

How the data were processed

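Values of 842 adult cells, the number the study gives, were used, and cells of aged mice were left out. Per the submitters' notes and the methods, reads were mapped to mm10 by STAR and assigned to genes by featureCounts (Subread), cells with fewer than 2000 genes or more than 10% mitochondrial reads were dropped, and Seurat 4.1.0 normalized the rest. The authors deposited each value as a natural log, of 1 added to the reads per 10000. The methods name log2, yet inverting the natural log alone returned 10000 in each cell. As far as stated, the counts are of reads, not of molecules. Annotation, strand and multi-mapping settings are not given in the sources used here. Inverting the deposited values gave whole reads for 100% of values above 0 (tolerance 0.01), used only for depth and thinning. No count model was fitted, since all cells form 1 sample. Doublets were not called. Groups held 226 cells with *Igfbp5* above 2 and 616 without, 407 with *Lyve1* above 1 and 435 without, 205 with *Stab2* above 1.5 and 637 without, and 211 in the lowest and highest quartile of the score. The 5 ranges of *Igfbp5*, from 0 upwards, held 186, 339, 91, 102 and 124 cells.

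Means, SDs, shares with exact Clopper–Pearson 95% intervals and log2 ratios of mean reads per 10000 (pseudocount 0.1) were computed with SciPy 1.17.1, pandas 2.3.3 and NumPy 2.4.6 under Python 3.11.15, and the calculation of ratios was tested on simulated data. Genes found in under 10% of all cells were left out of counts past 1.5-fold. 791 cells were thinned to 20000 reads by random draws without replacement. Loci and exon lengths are from GENCODE M21 (GRCm38). The genes named are the 9 members, up to 4 genes per list and direction past the fold, and the 3 genes with the highest r for each member, without mitochondrial, ribosomal protein and unnamed genes. Of these last genes, 1 for *Adamts5* and 1 for *Mmp2* are not reported here. Genes named outside this rule (such as *Adamts10*, *Mmp17*, *Mmp28*, *Vcan* and *Acan*) were chosen after their values were seen. The members and lists were chosen with earlier results of these data known. Alternatives changed the *Igfbp5* value, depth, pseudocount, measure, gene filter and the cells used.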

Additional observations from a re-analysis of the deposited data

How the results depend on the processing

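The count of members past the fold higher in cells with *Igfbp5* above 2 was 1 (*Adamts1*). It became 2 with an *Igfbp5* value of 1 (*Adamts5*, 0.64), and 0 with a value of 3 or in cells above the median immediate early score. Of all genes, 2.30% were past the fold higher with a value of 1, 3.05% with a value of 3 and 3.82% in cells above that median. The count lower (0) became 1 without the 5 highest cells of each group (*Adamts4*, −0.59) and in cells with *Lyve1* above 1 (*Adamts4*, −0.92), where *Adamts9* was at 1.03. The log2 ratio of *Adamts1* ranged from 0.30 to 1.12, the latter in cells below the median score. Of the other matrix genes, 4 were past the fold higher, and 2 with a pseudocount of 1, with the mean natural log or without the 5 highest cells. The count lower (7) was 2 with a pseudocount of 1 or the mean natural log, 12 with a pseudocount of 0.01 or without the 5 highest cells, 13 in cells with *Lyve1* not above 1, and 4 among genes found in at least 30% of cells. The cause was not tested.

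The share of all genes past the fold higher (2.43%) was 0.611% with a pseudocount of 1, 4.91% with 0.01, 0.642% with the mean natural log, 1.62% without the 5 highest cells, 5.52% in cells with *Lyve1* above 1, 4.95% below and 3.82% above the median score, and 1.46% among genes found in at least 3 cells. The share lower (3.50%) was 5.44% with an *Igfbp5* value of 3, then 0.508%, 8.74%, 0.321% and 7.996% for those same choices of pseudocount, measure and highest cells, 6.22% with *Lyve1* not above 1, 7.38% with *Lyve1* above 1, 8.25% below the median score and 1.95% among genes found in at least 3 cells. Of the 9 members, 4 were found in at least 50% of cells, 3 after thinning to 20000 reads, and 2 (*Timp2* and *Timp3*) when a level above 1 was asked for. No alternative turned the direction of *Adamts1*. *Adamts4* (0.32) and *Adamts9* (−0.25) turned in cells with *Lyve1* not above 1, and *Adamts5* in cells above the median score (−0.13) and in cells with at least 100000 reads (−0.06). No alternatives were run for the divisions by *Lyve1*, *Stab2* and the score. *Mmp2* and *Timp1* were found in too few cells to be counted. No replicate could be left out, since there is 1 sample, and no paired analysis was possible because the labels give no mouse.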
